A study of Homo sapiens with 22 samples.

Results

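The clustered protocadherins are 53 genes in 3 tandem clusters, alpha, beta and gamma, on human chromosome 5. Every ChIP-seq peak with its summit in chr5:140700000-141600000 (GRCh38) was taken. That gave 260 of the 341123 peaks in 12 lists, and no measured value was used in choosing them. The alpha genes numbered 15 (PCDHA1 to PCDHA13, PCDHAC1 and PCDHAC2), the beta genes 16 and the gamma genes 22 (the PCDHGA and PCDHGB genes and the C-type genes PCDHGC3, PCDHGC4 and PCDHGC5).

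In the alpha and gamma clusters, each variable exon has its own promoter and is spliced to constant exons shared by the whole cluster, whereas beta genes have a single coding exon each. CTCF is a zinc-finger protein that binds a directional DNA motif and stops cohesin, the ring complex (RAD21, SMC1A, SMC3 and STAG1 or STAG2) that extrudes chromatin loops. In neurons, loops between CTCF sites at chosen protocadherin promoters and distal enhancers take part in the choice of isoforms, and the cadherin-like proteins mediate self-recognition at the cell surface. NIPBL loads cohesin and drives extrusion, and PDS5A and WAPL regulate its release.

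The cells were hTERT RPE-1, a line of human retinal pigment epithelium immortalised with telomerase, so the lists describe these genes outside neurons. Wild-type cells gave the CTCF and WAPL libraries. RAD21 was precipitated from 2 clones, NIPBL-A2, with the allele mCherry-P2A-FKBP12(F36V)-NIPBL, and NIPBL-D7, with mGreenLantern-P2A-FKBP12(F36V)-NIPBL. In each clone the asynchronous cells had received DMSO for 24 h, dTAGV-1 for 4 h or dTAGV-1 for 24 h. dTAGV-1 is a degrader that brings FKBP12(F36V)-tagged proteins to the VHL ubiquitin ligase. STAG1, STAG2 and PDS5A came from clone D7, PDS5A after DMSO for 24 h. The labels of STAG1 and STAG2 gave no treatment, while their peak names carried the word DMSO. An HA precipitation came from clone A2, and its peak names read HA-NIPBL. Each genotype was 1 clone and each protein and condition 1 library, so differences are given without a p-value or any check between replicates. Intervals are exact Clopper-Pearson 95% intervals and cover counting error only. Gene expression and NIPBL protein were not part of these lists, so neither the cell type nor the depletion could be checked from them.

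The lists held between 230 peaks (HA) and 59138 peaks (CTCF). CTCF had 60 peaks in the interval. RAD21 of clone A2 had 26 after DMSO, 23 at 4 h and 20 at 24 h, and RAD21 of clone D7 had 24, 29 and 20. PDS5A had 28 peaks, STAG1 18, STAG2 10 and HA 2. WAPL had none of its 2667 peaks here. That allows a share of the list of up to about 0.112%, an approximate limit and not a Clopper-Pearson one. The lowest background pileup recovered from a list was 13.4 reads for CTCF and 1.77 to 4.05 for the RAD21, STAG1, STAG2, PDS5A and WAPL lists, with higher values at single summits (up to 16.5 for RAD21 here), and the CTCF peak names carried 0.001 where all others carried 0.01. The longest list thus also had the highest of these minima. Coordinates of a site below cover its peaks in all lists together. The authors' fold enrichment of a summit over its background, called fold below, was read only within its own list.

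**Figure D1:**
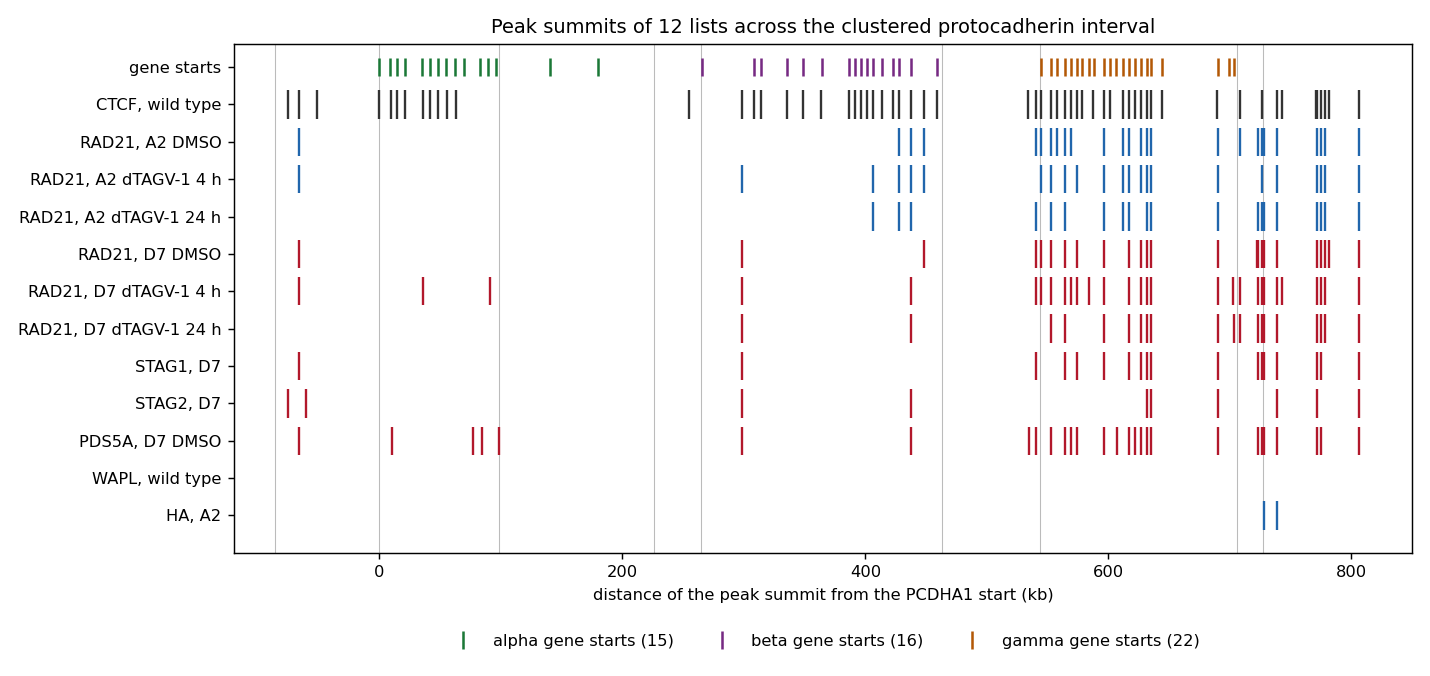
Peak summits of the 12 lists (rows) along the 900 kb interval (x axis, distance in kb from the PCDHA1 start), with gene starts in the top row and grey lines where the clusters and flanks meet. CTCF summits run through the alpha, beta and gamma variable genes, while RAD21 summits gather in the gamma cluster and downstream of it, and the stretch with the alpha C-type genes is empty in every list.

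The promoters are shown first, because many of their CTCF summits lay near a repeated sequence. Sequences are from RefSeq (GRCh38.p14, plus strand), which held promoters of 47 of the 53 genes. Each set is 60 bases, 5′ to 3′, with the match to the 9 letters GNNGNCGCT in capitals. Genes were picked to show alpha genes with (PCDHA6) and without (PCDHA12 and PCDHAC1) a CTCF summit at the match, and a beta gene without RAD21 (PCDHB9) and with it (PCDHB14). The gamma genes, picked from those with a match, are PCDHGA1, with RAD21 in 4 of 6 libraries, and PCDHGB1, PCDHGA11 and PCDHGC3, with RAD21 in all 6. PCDHGA2, PCDHGA7, PCDHGA9 and PCDHGB7, also with RAD21 in all 6, had no match.
PCDHA6: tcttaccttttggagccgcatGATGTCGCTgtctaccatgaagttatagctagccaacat
PCDHA12: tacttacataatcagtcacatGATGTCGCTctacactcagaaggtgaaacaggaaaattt
PCDHAC1: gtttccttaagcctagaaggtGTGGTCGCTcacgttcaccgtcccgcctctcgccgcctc
PCDHB9: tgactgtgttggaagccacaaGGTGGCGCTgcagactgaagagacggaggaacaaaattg
PCDHB14: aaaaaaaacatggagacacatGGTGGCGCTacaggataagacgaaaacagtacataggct
PCDHGA1: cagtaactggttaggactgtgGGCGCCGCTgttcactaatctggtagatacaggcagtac
PCDHGB1: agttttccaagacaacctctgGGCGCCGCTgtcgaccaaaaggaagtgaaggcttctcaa
PCDHGA11: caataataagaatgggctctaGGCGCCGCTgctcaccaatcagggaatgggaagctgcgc
PCDHGC3: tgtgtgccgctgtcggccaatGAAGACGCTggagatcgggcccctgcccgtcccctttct
The stretches lie at chr5:140827887-140827946 (PCDHA6), chr5:140875234-140875293 (PCDHA12), chr5:140926210-140926269 (PCDHAC1), chr5:141187064-141187123 (PCDHB9) and chr5:141223253-141223312 (PCDHB14). Those of the gamma genes lie at chr5:141330393-141330452 (PCDHGA1), chr5:141350015-141350074 (PCDHGB1), chr5:141420962-141421021 (PCDHGA11) and chr5:141475889-141475948 (PCDHGC3). All end before the annotated gene start.

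The alpha stretches carried GATGTCGCT in PCDHA6 and PCDHA12, the beta stretches GGTGGCGCT and most of the gamma stretches GGCGCCGCT. PCDHGC3 carried GAAGACGCT, and its CTCF summit lay at -37 bp from the match centre, outside the printed stretch. GNNGNCGCT, searched on both strands of the 300-base promoter windows (250 bases before to 50 after the start), was found in 35 of the 47 genes, 12 of 13 alpha, 13 of 14 beta and 10 of 20 gamma. It was in 22.7% of 35116 RefSeq promoters. These letters were chosen after the members' sequences and peaks had been seen. A strict letter pattern for the core of the usual CTCF motif, searched likewise, was found only in PCDHB9, against 10.6% of all promoters. Near matches to that strict pattern were not counted, so the search does not show that the other promoters lack the usual motif. Of the 34 genes with a sense-strand match, 24 had a CTCF summit within 200 bp of it, at a median distance of 7.5 bp and at most 51 bp. These were 13 of 13 beta, 8 of 10 gamma and 3 of 11 alpha genes. PCDHA10, PCDHA11, PCDHA12, PCDHAC1, PCDHGB3 and PCDHGC4 had the letters and no CTCF peak in the variable-gene window. A match is a description of letters, not a shown binding site. How many of all promoters with these letters had a CTCF summit within 200 bp was not computed. The 24 of 34 thus describe these members only.

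CTCF lay at most variable genes of all 3 clusters. The window of a gene ran from 500 bp before its start to 2500 bp after it, or to the gene end for beta genes, since exon coordinates were not used here. A CTCF summit fell in 42 of 53 windows (79.2%, 65.9 to 89.2), beside 34.4% of 15812 protein-coding genes with windows of 3 kb. With beta windows also of 3 kb, the count of members was the same in each of the 12 lists. The 42 were 9 of 15 alpha genes, 15 of 16 beta genes and 18 of 22 gamma genes. In the alpha cluster they were PCDHA1 to PCDHA9, without a gap, and none of PCDHA10 to PCDHA13, PCDHAC1 and PCDHAC2. In the beta cluster PCDHB1, the first gene, was the exception. In the gamma cluster the windows of PCDHGB3, PCDHGA8, PCDHGC4 and PCDHGC5 had none.

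**Figure D2:**
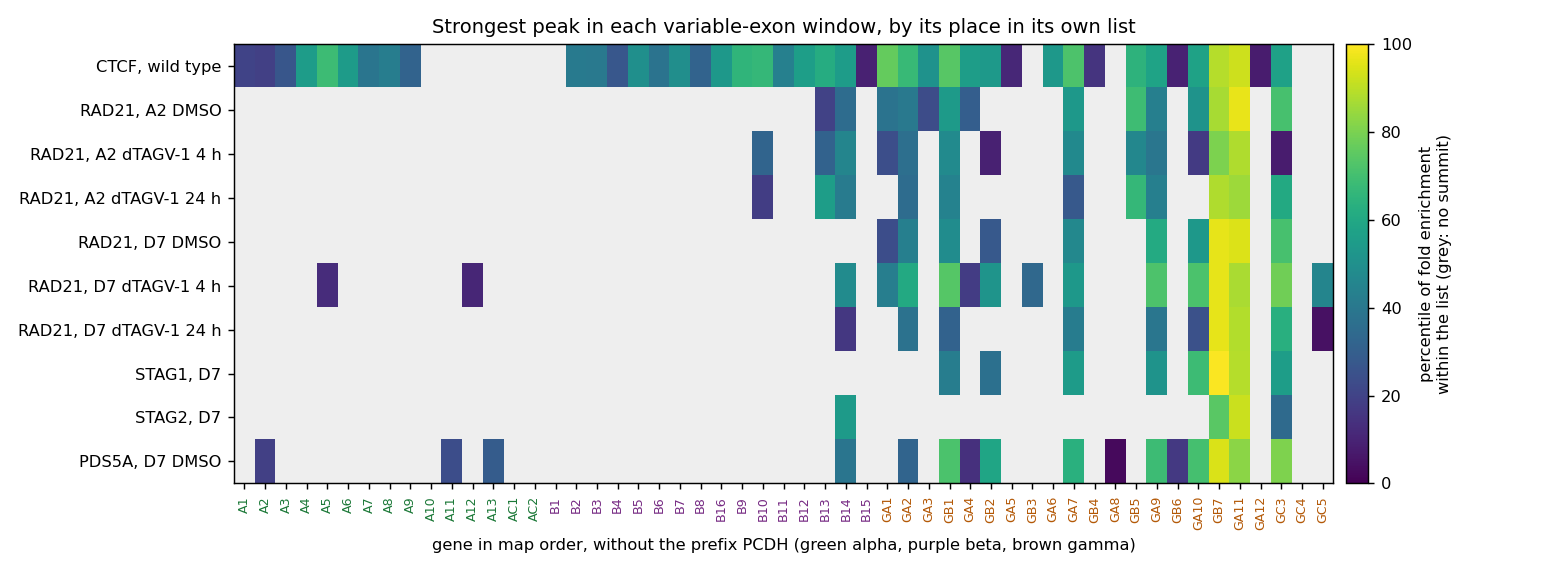
Highest peak in each variable-gene window (columns, genes in map order by cluster) in 10 lists (rows), coloured by its percentile of fold within its own list, with grey for no summit. WAPL and HA, with none, are not drawn. The CTCF row is filled in 42 of 53 genes, whereas RAD21 fills 15 of 22 gamma, 3 of 16 beta and 2 of 15 alpha genes in at least 1 library.

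The position of CTCF within the window differed between alpha genes. In beta genes all 15 summits lay from 83 to 9 bp before the start, at a median of 50 bp, and in gamma genes all 18 lay from 96 to 32 bp before it, at a median of 58 bp. In alpha genes 4 summits lay 76 to 24 bp before the start (PCDHA1, PCDHA3, PCDHA6 and PCDHA7). The other 5, PCDHA2, PCDHA4, PCDHA5, PCDHA8 and PCDHA9, had the summit 505 to 615 bp after the start. In PCDHA2, PCDHA4, PCDHA5 and PCDHA8 it lay 607, 661, 671 and 608 bp downstream of the promoter match. Those 4 alpha peaks, 1029 to 1329 bp wide, also covered the promoter match, so the list gives 1 summit for a stretch that reaches from before the gene start into the gene.

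**Figure D3:**
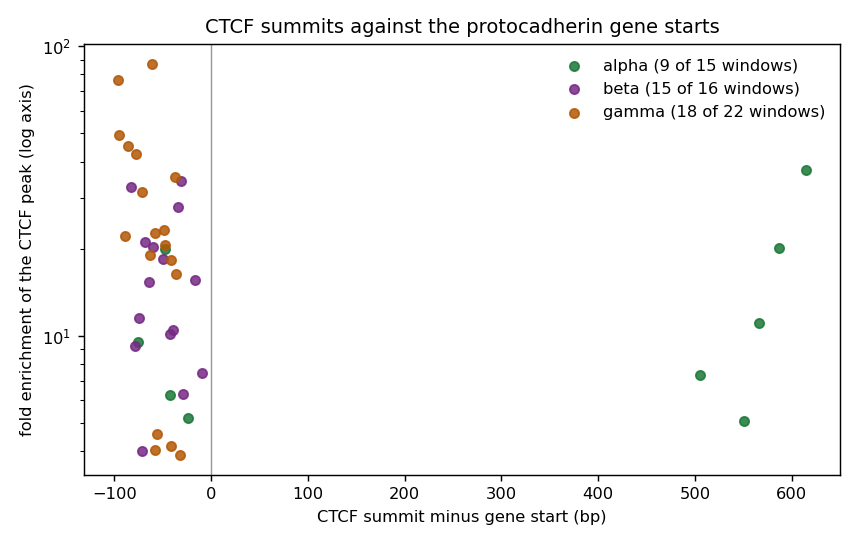
Distance of each CTCF summit from the annotated gene start (x axis, bp) against the fold of its peak (y axis, log scale) for the 42 variable genes with a summit, coloured by cluster. Beta and gamma summits sit within 96 bp before the start, and alpha summits form 2 groups, near the start and 505 to 615 bp after it.

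Alpha CTCF peaks were the lowest and gamma the highest within the CTCF list. The median fold was 9.53 in alpha windows (5.08 to 37.5), 15.3 in beta windows (4.00 to 34.4) and 22.4 in gamma windows (3.87 to 87.2). The whole list had a median of 15.6. The 3 highest alpha peaks were at PCDHA5 (37.5), PCDHA4 (20.1) and PCDHA6 (19.96). The 3 highest beta peaks were at PCDHB10 (34.4), PCDHB9 (32.5) and PCDHB13 (27.8). The 3 highest gamma peaks were at PCDHGA11 (87.2), PCDHGB7 (76.3) and PCDHGA1 (49.2). The ranges of the 3 clusters overlapped, and gamma also held low peaks, such as PCDHGA12 (3.87) and PCDHGB6 (4.03). PCDHGB7, second among the gamma peaks, had no match to GNNGNCGCT, and the 60 bases around its summit (chr5:141417551-141417610) are printed to show what lay there. They hold ggcgccgcc, which differs from GGCGCCGCT, the letters of most printed gamma stretches, at the last base only.
PCDHGB7: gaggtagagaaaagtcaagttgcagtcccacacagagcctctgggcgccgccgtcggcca

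RAD21, the cohesin subunit that closes the ring, was called at more gamma genes than alpha or beta genes. Its summits fell in 14, 14 and 11 of the 53 windows in clone A2 (DMSO, 4 h and 24 h), beside 28%, 8.01% and 13% of all protein-coding windows. In clone D7 they fell in 10, 16 and 10 windows, beside 31.1%, 34.3% and 17.9%. After DMSO the members' shares, 26.4% in A2 and 18.9% in D7, were thus no higher than those of other genes, although CTCF was. At 4 h the A2 share was again 26.4% (15.3 to 40.3), with its interval above the 8.01% of all windows. The intervals held the share of all windows for A2 at 24 h (20.8%, 10.8 to 34.1). They also held it for D7 at 4 h (30.2%, 18.3 to 44.3) and 24 h (18.9%, 9.44 to 32.0). Over the 6 libraries, RAD21 was in the windows of 15 of 22 gamma genes, 3 of 16 beta genes and 2 of 15 alpha genes. It was in all 6 libraries at 7 genes, all gamma, namely PCDHGA2, PCDHGB1, PCDHGA7, PCDHGA9, PCDHGB7, PCDHGA11 and PCDHGC3. CTCF of wild-type cells without RAD21 in any library of the clones was found at 12 beta, 8 alpha and 5 gamma genes. For these counts over the 6 libraries no share of all protein-coding windows was computed, so they compare the clusters only. Genes of 1 cluster share their neighbourhood and are not replicates.

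PCDHGB7 and PCDHGA11, neighbours in the gamma cluster, had the highest RAD21 peaks of all variable genes. At PCDHGB7 RAD21 had a fold of 42.2, 28.2 and 41.2 in clone A2 (DMSO, 4 h, 24 h) and 63.9, 80.0 and 68.7 in clone D7. STAG1 had 111.6 there, STAG2 17.9 and PDS5A 62.5. The STAG1 peak was the 133rd highest of 26879. At PCDHGA11 RAD21 had 70.6, 36.8 and 36.0 in A2 and 56.8, 37.7 and 41.4 in D7, with STAG1 at 39.7, STAG2 at 30.8 and PDS5A at 25.8. Both genes were in 10 of the 12 lists, all but WAPL and HA. PCDHGC3, a C-type gene, was also in 10 lists, with RAD21 at 24.7, 4.67 and 14.7 in A2 and 19.6, 22.4 and 16.6 in D7. The A2 fold of 4.67 at 4 h was a summit of 76 reads over a background of 15.5, where the DMSO fold was 93 reads over 2.80.

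The other gamma genes with RAD21 after DMSO in both clones had lower peaks. PCDHGB1 had 15.1, 12.002 and 9.17 in A2 and 9.37, 18.2 and 7.25 in D7. PCDHGA9 had 10.8, 9.74 and 8.91 in A2 and 14.0, 17.0 and 8.70 in D7. PCDHGA7 had 14.6, 11.8 and 6.26 in A2 and 8.86, 8.25 and 9.34 in D7. These 3 also had STAG1 and PDS5A and no STAG2. PCDHGA2 had 9.99, 9.12 and 7.35 in A2 and 8.06, 10.7 and 8.36 in D7, with PDS5A at 4.50 and neither STAG1 nor STAG2. PCDHGA10 had 13.8, 5.92 and no peak in A2 and 10.9, 16.6 and 6.34 in D7, with STAG1 at 18.0 and PDS5A at 14.4. PCDHGA1 had no peak at 24 h in either clone. Where PCDHGA1 was called, RAD21 was 9.30 and 6.93 in A2 and 5.10 and 6.25 in D7. So its CTCF peak, the third highest among gamma genes, stood beside some of the lower RAD21 peaks.

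In the beta cluster RAD21 was at 3 of the genes, PCDHB10, PCDHB13 and PCDHB14, which lie near its 3′ end. PCDHB14 had 8.63, 11.3 and 8.55 in A2 and, in D7, no DMSO peak, then 7.13 and 5.21, with STAG2 at 11.6, PDS5A at 5.17 and no STAG1. PCDHB10 had RAD21 only in A2 at 4 h (8.28) and 24 h (5.07). PCDHB9, next to it and with a CTCF peak of nearly the same fold, had none. At a CTCF peak between PCDHB1 and PCDHB2 (chr5:141084146-141084998, CTCF 35.0) RAD21 was 9.75, 8.72 and 9.35 in D7 but was called in A2 only at 4 h (6.15). STAG2 had 18.4 there, STAG1 9.75 and PDS5A 9.03. Of the 6 annotated pseudogene copies in the clusters, PCDHB18P alone had CTCF, 41 bp before its start (fold 19.5), and RAD21 was at 9.08 and 8.11 in A2 (DMSO, 4 h) and 4.25 in D7 after DMSO.

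Cohesin at the alpha genes was close to absent from the lists. After DMSO neither clone had a RAD21 peak in any alpha window. RAD21 of D7 at 4 h had 2 low peaks, at PCDHA5 (3.60) and PCDHA12 (3.49). PDS5A had 3, at PCDHA2 (3.65), PCDHA11 (3.92) and PCDHA13 (4.25), from 1716 to 2227 bp after the starts and outside CTCF peaks. Another PDS5A peak lay in the pseudogene PCDHA14 (4.77). STAG1 and STAG2 had none. PCDHA13 had no peak in the other 11 lists.

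The relation between the fold of a CTCF peak and RAD21 was set out by 4 classes of the whole CTCF list, equal in number and ordered by fold, a division added after the data had been seen. In class 1 (1.93 to 5.95) 2 of 11 interval peaks had RAD21 in any library, beside 30.2% of the list. In class 2 (to 15.6) 0 of 14 had it (8 beta, 4 alpha and 2 other peaks), beside 54.3%. In class 3 (to 47.3) it was 17 of 23, beside 88.6%, made up of 10 of 11 gamma, 5 of 8 beta and 1 of 3 alpha peaks in the segments of those genes and 1 of 1 elsewhere. In class 4 it was 11 of 12, beside 98.7%. The exception was a CTCF peak by the TAF7 gene (fold 70.7, chr5:141319854-141320793), where PDS5A alone (6.08) was called. In all, 30 of 60 CTCF peaks (50%, 36.8 to 63.2) had RAD21 in any library, beside 67.9% of the list, and 13 had it in all 6, beside 31.7%. Low peaks are also those that a shallower list is likely to miss, and the part of depth was not tested. CTCF was mapped in wild-type cells and RAD21 in the clones, so CTCF at these sites in the clones is not known.

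**Figure D4:**
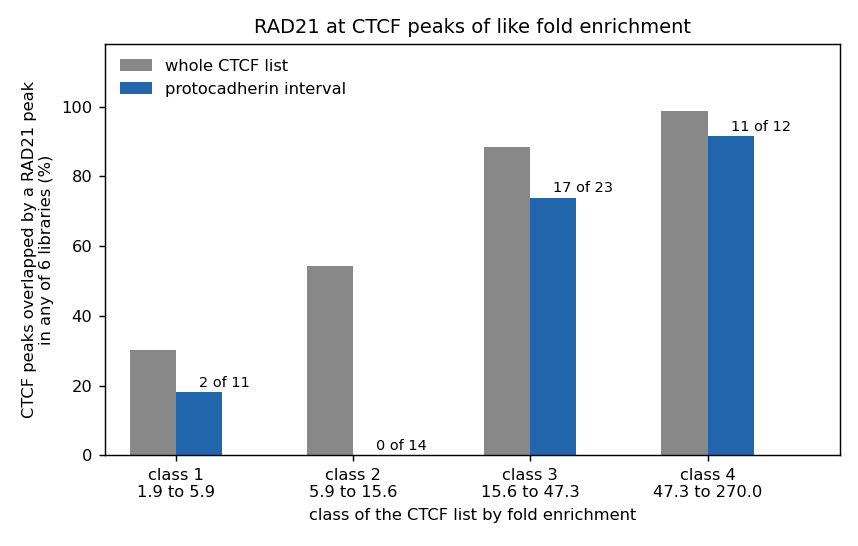
Percent of CTCF peaks overlapped by RAD21 in any of 6 libraries (y axis), for 4 classes of the CTCF list by fold (x axis, with their bounds), in the whole list (grey) and the protocadherin interval (blue, with counts). No peak of 14 in class 2 of the interval had RAD21, against 54.3% of the list.

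The C-type genes and constant regions did not behave alike. In the alpha cluster the C-type genes PCDHAC1 and PCDHAC2 and the shared constant exons lay in a stretch of 127.7 kb with no peak in any of the 12 lists. With the sequence on either side, the gap ran from chr5:140884450 to chr5:141041056, 156.6 kb, and was the longest without a peak in the interval. Between the alpha constant exons and PCDHB1 there was 1 CTCF peak (fold 8.56, chr5:141041057-141041629), without cohesin. Enhancers of the alpha genes known from neurons lie in this part of the cluster, and no position was assigned to them here. In the gamma cluster PCDHGC3 was in 10 lists, PCDHGC4 in none, and PCDHGC5 had RAD21 only in D7 after dTAGV-1 (6.71 at 4 h and 3.80 at 24 h).

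The shared 3′ part of the gamma cluster, with its constant exons, held RAD21 at 2 CTCF peaks and at a non-CTCF site. The lower CTCF peak had a fold of 3.99 (site chr5:141493207-141494440). RAD21 there was 7.02 in A2 after DMSO, and 4.91 and 5.72 in D7 at 4 h and 24 h. At the end of this part, CTCF had a fold of 94.0 (chr5:141512004-141513079). RAD21 there was 12.8, 5.59 and 5.65 in A2 and 12.2, 12.1 and 10.6 in D7, with PDS5A at 9.15 and STAG1 at 2.90. Before that site (chr5:141507508-141509664) and after it, in the downstream flank (chr5:141513332-141514552), RAD21 was called in 5 of 6 libraries without CTCF. The A2 library at 4 h was the one without a peak. The fold there was 2.90 to 7.86 and 2.58 to 6.02.

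Downstream of the gamma cluster, inside DIAPH1, a formin gene at chr5:141515021-141619000, lay the highest RAD21 peak of the interval in 5 of 6 libraries. In D7 at 4 h, and for STAG1 and PDS5A, the highest was at PCDHGB7. In the downstream flank 5 CTCF sites had RAD21 in all 6 libraries. At 48.1 kb from the gamma end (chr5:141560416-141561622) RAD21 reached 269.0, 40.3 and 133.6 in A2 and 137.7, 59.4 and 73.2 in D7. The A2 DMSO value was the highest of all 39713 peaks of its list, and the D7 DMSO value ranked 30 of 37566. CTCF was 93.8 there, STAG1 14.8 and PDS5A 22.2, and STAG2 had no peak. STAG1 ranked 9995 of 26879, far lower in its list than RAD21 in its own.

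The other 4 sites differed in STAG2. At 11.9 kb (chr5:141524399-141525474) CTCF was at its highest in the interval, 160.1, with RAD21 at 50.9, 11.9 and 25.9 in A2 and 60.6, 35.8 and 21.02 in D7. STAG1 was 28.3 there, STAG2 15.3, PDS5A 53.7 and HA 6.20. The A2 fold of 11.9 at 4 h was a summit of 149 reads over a background of 11.6, and the A2 DMSO pileup was not recovered. At 45.1 kb (chr5:141557477-141558547) RAD21 was 51.2, 14.8 and 27.1 in A2 and 26.3, 15.7 and 31.0 in D7, with STAG2 at 16.9. At 79.2 kb (chr5:141591730-141592661) RAD21 was 31.2, 16.1 and 12.9 in A2 and 38.8, 6.76 and 18.1 in D7, with STAG2 at 36.0, its highest in the interval. At 51.4 kb (chr5:141563771-141564940) CTCF was 76.4, RAD21 3.48 to 11.6, and neither STAG protein nor PDS5A had a peak. A CTCF peak of 101.5 at 54.7 kb (chr5:141567044-141568625) had RAD21 only in D7 after DMSO (4.23). The neighbouring CTCF peaks at 48.1, 51.4 and 54.7 kb, with CTCF folds of 93.8, 76.4 and 101.5, thus had D7 DMSO RAD21 folds of 137.7, 8.86 and 4.23.

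STAG1 and STAG2, the alternative subunits of cohesin, were not equally spread. STAG1 was in 8 gene windows, all gamma, beside 27.4% of all protein-coding windows, and STAG2 in 4 (PCDHB14, PCDHGB7, PCDHGA11 and PCDHGC3), beside 5.44%. Of the 18 STAG1 peaks, 7 overlapped STAG2 (38.9%, 17.3 to 64.3), beside 58% of the STAG1 list, and 7 of the 10 STAG2 peaks overlapped STAG1, beside 69.6%. All 18 STAG1 peaks lay on RAD21 of D7 after DMSO, beside 93.6%, and 7 of 10 STAG2 peaks, beside 84%. PDS5A was in 16 windows, beside 35%, and 19 of its 28 peaks lay on that RAD21 list, beside 72.7%. WAPL was in no window, beside 0.645%, and HA in none, beside 0.0949%. The 2 HA peaks lay downstream of gamma, at 1.22 kb (5.62) and 11.9 kb (6.20), and that list held few peaks anywhere.

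Most cohesin peaks of the interval lay on CTCF peaks. In clone A2 these were 24 of 26, 23 of 23 and 18 of 20 RAD21 peaks after DMSO, 4 h and 24 h, beside 85.9%, 97.9% and 90.7% of the lists. In clone D7 they were 21 of 24, 24 of 29 and 17 of 20, beside 83.1%, 78.2% and 90.7%. For STAG1 it was 16 of 18, beside 87.7%, for STAG2 8 of 10, beside 85.4%, for PDS5A 21 of 28, beside 74.9%, and for HA 1 of 2, beside 67%. WAPL had no peak here to count, beside 99.2% of its list on CTCF. The shares of RAD21, STAG1, STAG2 and PDS5A were close to those of the lists.

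Read from the CTCF side, fewer of the 60 CTCF peaks than of the whole list had cohesin in most libraries. RAD21 of A2 overlapped 24, 23 and 18 of them (DMSO, 4 h, 24 h), beside 57.4%, 42.2% and 43.6%, and RAD21 of D7 overlapped 21, 24 and 17, beside 52.8%, 51.6% and 45.9%. As shares of the 60 these were 40%, 38.3% and 30% in A2 and 35%, 40% and 28.3% in D7. STAG1 overlapped 16, beside 40%, STAG2 8, beside 32.3%, and PDS5A 21, beside 36.6%. WAPL overlapped 0, beside 4.46%, and HA 1, beside 0.26%. The share of the list lay within the interval of the member share for RAD21 of A2 at 4 h (26.1% to 51.8%), RAD21 of D7 at 4 h (27.6% to 53.5%), PDS5A (23.1% to 48.4%), WAPL (0% to 5.96%) and HA, and above it for the other 4 RAD21 libraries, STAG1 and STAG2.

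After dTAGV-1 most RAD21 peaks of the DMSO libraries were still called. In clone A2, 20 of 26 were overlapped at 4 h (76.9%, 56.4 to 91.0), beside 62.2% of the list, and 19 of 26 at 24 h (73.1%, 52.2 to 88.4), beside 64%. In clone D7, 22 of 24 were overlapped at 4 h (91.7%, 73.0 to 99.0), beside 80%, and 17 of 24 at 24 h (70.8%, 48.9 to 87.4), beside 68.8%. All 4 list shares lay within the intervals. Of the 24 D7 DMSO peaks, 13 were in the A2 DMSO list and all 4 dTAGV-1 lists, beside 50.4%, and none of those shared with A2 DMSO was missing from all 4, beside 5.35%. The 13 were the 7 gamma genes above, the peak at the gamma 3′ end and the 5 DIAPH1 sites. The libraries had mouse NIH/3T3 chromatin added. No scaling by it was done here, and whether the authors' folds were scaled is not given. A fold after dTAGV-1 thus cannot be read as an amount against DMSO.

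**Figure D5:**
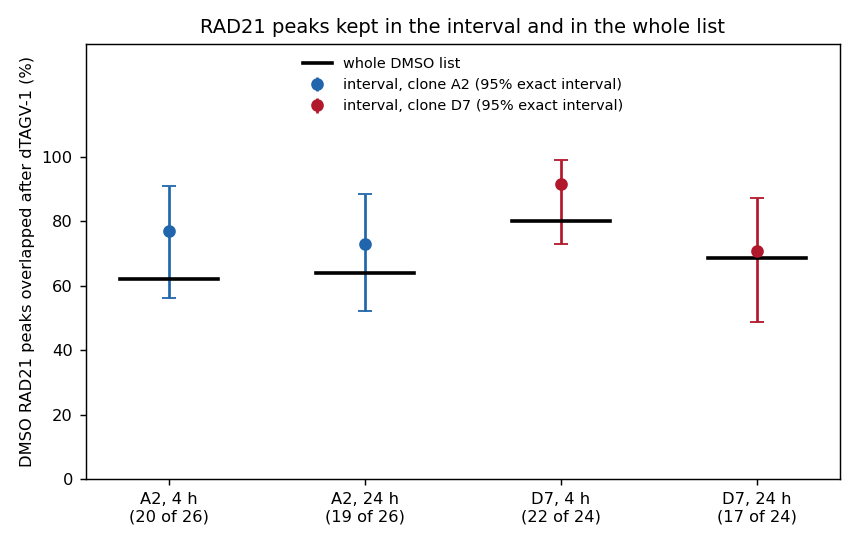
Percent of RAD21 DMSO peaks still overlapped after dTAGV-1 (y axis) in each clone and time (x axis), in the whole list (black lines) and the interval (points, with exact 95% intervals for counting error). The interval values run from 70.8% to 91.7%, and each 95% interval holds the value of its list.

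The DMSO peaks that were not called again had folds of at most 15.5. In A2 at 4 h the 6 lost peaks had a DMSO fold of 2.58 to 15.5, and 2 of them were at genes (PCDHGA3 and PCDHGA4). At 24 h the 7 lost peaks had 6.36 to 15.0, with 4 at genes (PCDHGA1, PCDHGA3, PCDHGA4 and PCDHGA10). In D7 at 4 h both lost peaks were at 4.23 and 4.25, outside gene windows, and at 24 h the 7 lost had 2.90 to 11.5, with PCDHGA1 and PCDHGB2 among them. The upstream flank site chr5:140719980-140720720 and PCDHB18P were lost in both clones at 24 h, as was PCDHGA1. Additional peaks, those with no DMSO peak, were 3 of 23 in A2 at 4 h (beside 3.64%) and 1 of 20 at 24 h (10.8%). In D7 they were 8 of 29 at 4 h (22.7%) and 3 of 20 at 24 h (13.5%). The 8 in D7 at 4 h had a fold of 3.48 to 7.13, and 6 were in gene windows (PCDHA5, PCDHA12, PCDHB14, PCDHGA4, PCDHGB3 and PCDHGC5). PCDHB10 was additional in A2 at both times, PCDHB14 and PCDHGC5 in D7 at both.

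The clones differed at a few genes, named here after their values were seen. Between DMSO libraries, 20 of 26 A2 peaks were in D7, beside 80.5%, and 20 of 24 D7 peaks in A2, beside 84.4%. PCDHGB5 had RAD21 at 23.3, 11.5 and 17.6 in A2, with summit pileups of 66, 70 and 103 reads, and no peak in any D7 list, STAG1, STAG2 and PDS5A included. PCDHB13 had 5.85, 8.16 and 12.6 in A2, with pileups of 26, 33 and 55 reads, and none in D7. These were the 2 of 60 CTCF peaks with RAD21 in all 3 A2 and no D7 library, beside 0.326% of the list, and the opposite pattern was in 0 of 60, beside 0.419%. With 1 clone per allele, clone, allele and library cannot be told apart.

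Both genes have a near-identical copy among the 561 pairs of promoter stretches compared. Within 60 bases around the GNNGNCGCT match, PCDHB13 differed from PCDHB8, and PCDHGB5 from PCDHGB4, at 1 base. No other pair of the 34 genes with a stretch differed at 5 bases or fewer. For PCDHB8 and PCDHB13 the first 30 bases are shown, at chr5:141177767-141177796 and chr5:141213855-141213884, and for PCDHGB4 and PCDHGB5 all 60, at chr5:141387607-141387666 and chr5:141397853-141397912.
PCDHB8: taagatcctgtgaggacccgtGGTGGCGCT
PCDHB13: taagatcctgtgaggacgcgtGGTGGCGCT
PCDHGB4: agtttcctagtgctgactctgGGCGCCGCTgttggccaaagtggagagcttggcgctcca
PCDHGB5: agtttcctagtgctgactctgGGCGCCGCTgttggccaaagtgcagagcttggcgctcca
Counted from 1 at the 5′ end of the stretch, the substitution from PCDHB8 to PCDHB13 was C18G, and from PCDHGB4 to PCDHGB5 it was G44C. The longer promoters aligned at the match were 93.8% identical over 259 bases for the beta pair and 75.1% over 297 bases for the gamma pair. CTCF had a fold of 7.41 at PCDHB8 against 27.8 at PCDHB13, and 4.58 at PCDHGB4 against 31.3 at PCDHGB5. Neither PCDHB8 nor PCDHGB4 had RAD21 in any library. How reads that match both copies were placed is not given in the sources used here, so a value at any of these 4 genes may hold reads of its copy, and the part of that was not tested.

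The genes around and outside the clusters set the values in context. Of the 4 other protein-coding genes in the interval, DIAPH1 had peaks within 1 kb of an end in 9 lists, TAF7 in 2 (CTCF and PDS5A), and ZMAT2 and SLC25A2 in none. The far end of DIAPH1, chr5:141619000, lies outside the interval. For CTCF, STAG1, STAG2 and RAD21 of both clones at 24 h, the DIAPH1 peaks lay only at that far end. Of 11 protocadherin genes outside the clusters, PCDH1 alone had CTCF within 1 kb of its start, and it was in 11 lists, all but WAPL. PCDH9 was in 4 lists, PCDH7 and PCDH18 in 1 each, and the other 7 in none. For PCDH10 and PCDH20 no strand was known, so a summit near either gene end was counted. No share of all protein-coding genes was computed for windows of 1 kb around the start.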

How the data were processed

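ChIP-seq peak lists of 12 immunoprecipitations were used, and 10 inputs without a list were not analysed here. The deposited narrowPeak files hold, for each peak, a score, the authors' fold enrichment at the summit (a ratio of library over background) and −log10 of its p and q values. The submitters' processing notes name BWA, Picard, SAMtools, bedtools, deepTools and MACS2 and the builds hg38 and mm10, without roles or versions. Each list's peak names pair 1 library with 1 control. Whether spike-in scaling was applied, and how reads mapping to several places were treated, is not given in the sources used here. HA chromatin was fixed with DSG and formaldehyde and all other chromatin with formaldehyde alone, and for CTCF the DNA was size-selected before a different library kit, per the labels' protocols.

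Starts were written from 1. Peaks overlapped where they shared at least 1 bp. A summit in 2 windows went to the nearer gene start. Gene positions came from RefSeq (GRCh38.p14). Strand was known for 15812 of 20052 protein-coding genes, which form the window background. Summit pileups were recovered from fold and −log10 p where the latter was below 250, and came out whole (within 0.002) for 100% of peaks tested in 11 lists and 0% in the HA list, for which none is given. With 1 library per group no test was run. Shares have exact Clopper-Pearson 95% intervals. Peaks in the deposited lists have a −log10 q of at least 2.00 (at least 3.09 for CTCF), so sites below that are not seen.

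Members and lists were chosen with earlier results of these data known. Named with values were the C-type genes, PCDHB1 and PCDHA13, the 3 genes per cluster with the highest CTCF fold, genes with RAD21 in both DMSO libraries, sites in at least 6 lists beyond the constant exons and peaks in all 6 RAD21 lists; others were chosen after their values were seen. The overlap, summit-distance and pileup steps were tested on simulated peaks, and the window step was not. Python 3.11.15, pandas 2.3.3, numpy 2.4.6, scipy 1.17.1 and matplotlib 3.10.9 were used. Alternatives were a −log10 q of at least 10, summits within 200 bp, RAD21 lists of equal length, the clusters alone and windows within 1 kb of the start.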

Additional observations from a re-analysis of the deposited data

Results flagged for a closer look

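The number of RAD21 peaks in the interval at 4 h of dTAGV-1 moved in opposite directions in the clones, by -3 in clone A2 (26 to 23) and by 5 in clone D7 (24 to 29). The percent of RAD21 peaks overlapping CTCF at 4 h also moved in opposite directions, by 7.69 percentage points in A2 (24 of 26 to 23 of 23) and by -4.74 in D7 (21 of 24 to 24 of 29). Each clone had 1 library per time, and this difference between clones was not tested. The opposition depends on the setting. With RAD21 lists of equal length the counts rose in both clones, by 4 in A2 and 6 in D7, and with only peaks of −log10 q 10 or more they moved by -1 and 3. The CTCF share of A2 was 100% before and at 4 h under both of those settings, so its change was 0, against -13 and -7.14 percentage points in D7. At 24 h, at the authors' threshold, the counts moved by -6 and -4 and the shares by -2.31 and -2.50 percentage points. At equal length both counts moved by 0, and with only peaks of −log10 q 10 or more the shares moved in opposite directions, by -5.88 in A2 and 9.52 in D7. Over the whole lists the 4 h counts also moved apart, from 39713 to 25763 peaks in A2 and from 37566 to 39059 in D7.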

How the results depend on the processing

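Of 145 values recomputed under other settings, 129 stayed within their limits and 16 moved. The limit was a ratio of 1.5 for a count and the exact interval of the main value for a percent. These limits are wide, so a fall from 26 to 19 peaks (RAD21 of A2 after DMSO, clusters alone) counts as having stayed. None of the 25 values with summits within 200 bp and none of the 7 with windows within 1 kb of the start moved. At a −log10 q of at least 10, PDS5A kept 18 peaks and HA 0, HA then overlapped 0% of CTCF peaks, and the CTCF share was 100% for RAD21 of A2 after DMSO, RAD21 of D7 at 24 h, STAG1 and PDS5A. With the RAD21 lists cut to the 25763 peaks of the shortest, 94.74% of A2 DMSO peaks were retained at 4 h (87.4% of the whole list) and 88.24% of D7 DMSO peaks at 24 h (81.3% of the whole list), and the CTCF share was 100% for RAD21 of both clones after DMSO and of D7 at 24 h. Within the clusters alone STAG2 had 5 peaks, all on CTCF (100%), and HA had 0 and overlapped 0% of CTCF peaks. Leaving out 1 RAD21 list at a time, 28 to 30 CTCF peaks of the interval had RAD21 in any library; 28 was without the D7 library at 4 h. The cause of these moves was not tested. The WAPL share on CTCF could not be computed with 0 peaks. No replicate block was fitted, since the labels give no replicate numbers and no result comes from a test; treated libraries were compared with DMSO of their own clone. Lists differ in length and read background, so an absent peak may be a site not detectable at that depth.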

Other observations

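Vault RNA genes, short genes transcribed by RNA polymerase III, lie upstream of the alpha cluster. STAG2 had a peak at VTRNA1-1 (chr5:140711128-140711547, fold 8.65) and at VTRNA1-3 (chr5:140725992-140726464, fold 11.5), and neither overlapped a peak of another list. VTRNA1-2 had no peak within 1 kb in any list. A CTCF peak (fold 4.18) lay within 1 kb of VTRNA1-1.

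At the DIAPH1 site 48.1 kb beyond the gamma cluster, the RAD21 summit was the same base, chr5:141561064, in all 6 RAD21 lists, and the CTCF summit was at chr5:141561071. Of 18921 D7 DMSO RAD21 peaks found in all 6 lists, 5 (0.0264%) had an identical summit, and the median spread was 30 bp. Among 999 of these that were in the 1000 highest D7 DMSO peaks, the median spread was 8 bp and 2 had an identical summit.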
